A study of Mus musculus with 8 samples.

Results

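Interferon response genes were followed in the fat that wraps the thoracic aorta of the mouse, called perivascular adipose tissue. The set is a list of 32 genes that cells switch on after interferon signalling, chosen by symbol. Of these, 29 had a probe set of their own and could be measured, among 18782 genes with such a probe set on the array. Gbp6 and Igtp share their probe sets with neighbouring GTPase genes in the platform annotation, and Ifi44 has no probe set there, so these 3 are not described. RNA came from 4 samples of mice labelled RictoraP2KO and 4 samples of control mice labelled Rictorfl/fl, and each sample was run on 1 array. RictoraP2KO names a deletion of Rictor, the defining subunit of mTOR complex 2, by Cre recombinase under the aP2 (Fabp4) promoter, which is active in fat cells, and the series title speaks of deletion in brain and fat. The floxed allele of the controls carries no deletion by itself, and whether the control mice carried Cre is not stated. Both groups were males aged 17 to 22 weeks, starved through the night before tissue was taken at 9 am. The question put by the design was how gene expression in this fat differs with the deletion.

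Interferons are secreted by cells that sense viral or misplaced nucleic acid. Type I interferon binds the receptor pair IFNAR1 and IFNAR2, the kinases JAK1 and TYK2 are activated, and STAT2 joins IRF9 in a complex called ISGF3 that binds the interferon-stimulated response element (ISRE) in promoters. Type II interferon acts through the gamma-activated site (GAS). The target genes encode RNA sensors, enzymes and binding proteins that block viral RNA, ubiquitin-like modifiers and GTPases that act on intracellular vacuoles. Macrophages and other immune cells of fat carry much of this programme, and fat cells respond to interferon too. In a tissue sample, more cells of one type and more RNA per cell cannot be told apart.

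Promoters of members are shown for the elements named above, and RefSeq windows on GRCm38.p6 of 250 bases before to 50 bases after the start site were available for 21 of the 29 measured members. The core of the ISRE was searched as GAAANNGAAA on both strands, and the core of the GAS as TTCNNNGAA, which reads the same on both strands. An ISRE core was found in 13 of the 21 members (61.9%), against 3.99% of the 27025 genes with such a window. They were Bst2, Ddx58, Gbp2, Gbp3, Ifih1, Ifit1, Ifit3, Irgm1, Isg15, Oas1a, Oas3, Rsad2 and Stat2. A GAS core was found in 4 of the 21 (19%), namely Bst2, Ifit2, Irf1 and Oas1a, against 9.55% of all genes. A match is a description of letters and not a measured binding site. Upstream stretches of 160 bases ending at the base before the start site are given for 5 members whose values are described below, 5′ to 3′ on the strand of the gene, with the matched core in capitals. Those of Ifit1 (chr19:34640729-34640888, plus strand) and Ifit3 (chr19:34583369-34583528, plus strand) each hold 2 ISRE cores, and those of Rsad2 (chr12:26456453-26456612, minus strand) and Gbp2 (chr3:142620503-142620662, plus strand) each hold 1. That of Irf1 (chr11:53769854-53770013, plus strand) holds a GAS core and no ISRE core.
Ifit1: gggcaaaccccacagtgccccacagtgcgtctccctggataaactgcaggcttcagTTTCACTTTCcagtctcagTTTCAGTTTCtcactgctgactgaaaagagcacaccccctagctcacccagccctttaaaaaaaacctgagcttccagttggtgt
Ifit3: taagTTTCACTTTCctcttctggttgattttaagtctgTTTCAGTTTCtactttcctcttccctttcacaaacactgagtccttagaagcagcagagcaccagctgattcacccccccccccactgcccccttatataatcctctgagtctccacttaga
Rsad2: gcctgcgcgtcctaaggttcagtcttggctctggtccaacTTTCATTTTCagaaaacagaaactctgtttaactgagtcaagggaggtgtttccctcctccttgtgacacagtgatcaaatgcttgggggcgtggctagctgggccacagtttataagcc
Gbp2: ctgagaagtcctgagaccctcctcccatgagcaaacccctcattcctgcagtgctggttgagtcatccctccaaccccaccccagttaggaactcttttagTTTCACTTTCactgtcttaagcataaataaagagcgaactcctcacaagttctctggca
Irf1: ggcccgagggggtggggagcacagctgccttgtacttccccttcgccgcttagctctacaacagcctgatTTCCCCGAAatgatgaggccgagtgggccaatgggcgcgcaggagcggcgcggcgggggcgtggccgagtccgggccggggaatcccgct

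Values are log2 RMA signals, where 1 unit is a doubling, and differences are RictoraP2KO minus control with their standard error (SE). They were tested with limma, two-sided, adjusted by the method of Benjamini and Hochberg over all 28371 probe sets, with a threshold of 0.05. Of 8 adipocyte and 8 brown adipocyte markers 0 passed by limma, with 0 at an unadjusted p under 0.05, and 6 of the 8 brown markers had differences below 0. Over all genes, 6.48% had such an unadjusted p and 46.8% had a difference above 0. Signals were high in both groups for 2 defining genes, at 11.72 ± 0.09 in RictoraP2KO and 11.70 ± 0.03 in control arrays for Fabp4 and at 11.75 ± 0.26 and 11.67 ± 0.26 for the brown fat gene Ucp1 (SD, n = 4 each). The Rictor signal did not drop with the RictoraP2KO label, at 6.68 ± 0.08 against 6.54 ± 0.06 in control arrays (SD, n = 4 each), so directions rest on the labels. The labels name no deleted exon and the positions of the Rictor probes were not examined, so whether this signal could show the deletion is not known. Signal of another tissue stood out in 3 arrays, by means of marker lists taken relative to each gene's mean over the arrays. RictoraP2KO replicate 2 had a mean of 1.29 for skeletal muscle markers, where the other arrays reached at most -0.06. Control replicate 2 stood at 2.90 for lung epithelium, with the other arrays at most at -0.30, and control replicate 3 at 1.37 for neuron markers, with the others at most at -0.14. Cardiac muscle markers were lowest in RictoraP2KO replicate 1, at -1.58, and highest in RictoraP2KO replicate 2, at 2.08. RictoraP2KO replicate 1 also stood apart in its fat genes, with a mean of -0.61 for brown adipocyte markers, where the next lowest array had -0.21, and of 0.28 for adipocyte markers, where the next highest had 0.04. In that array Elovl3, a fatty acid elongase of brown fat, had 6.84, against at least 8.29 elsewhere, and Lep, the leptin gene, had 5.81, against at most 3.755 elsewhere. Values over the whole set are given with and without the 3 arrays, and without RictoraP2KO replicate 1, which the fit without the 3 arrays still holds.

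None of the 29 interferon response genes differed between RictoraP2KO and control arrays by limma, whose smallest adjusted p among them was 0.651. Over all genes 1 passed, or 0.00532%. At an unadjusted p under 0.05 there were 2 members, Ifih1 and Ifit2, both higher in RictoraP2KO (2 of 29, against 6.48% of all genes). Of the 29 members 21 had a difference above 0 (72.4%, against 46.8% of all genes), and their median difference was 0.08, against -0.01 over all genes. Single differences lay between -0.22 for Rsad2 and 0.36 for Rtp4. Without the 3 arrays that carried other tissue, 12 of 29 members lay above 0, the median was -0.05 and 0 had an unadjusted p under 0.05, where 823 of the 18782 genes had one. That fit held 3 RictoraP2KO and 2 control arrays. It left out control replicate 3, the lowest array for 12 of 29 members. Without control replicate 3 alone, 16 of 29 lay above 0 and the median was 0.06. Without RictoraP2KO replicate 1, 21 of 29 lay above 0 and the median was 0.10. Groups of 4 arrays limit the precision, and the median SE of a member's difference was 0.14.

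**Figure D1:**
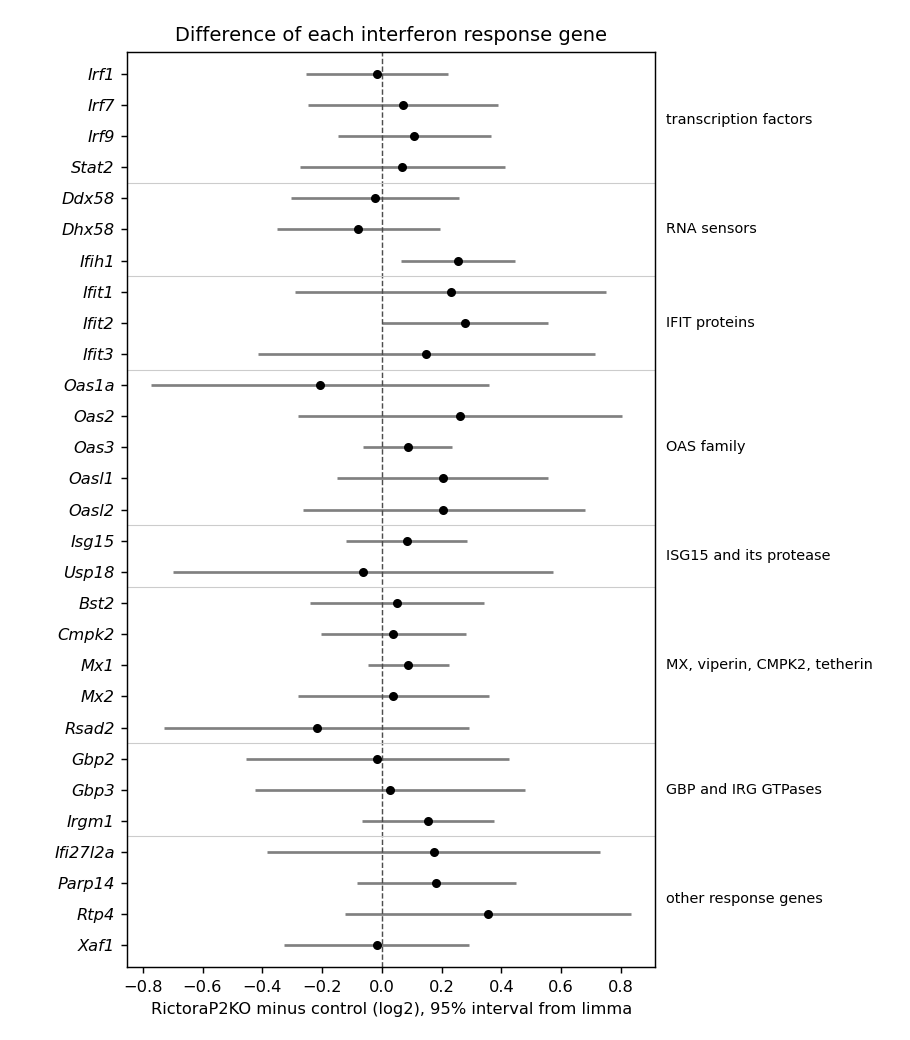
Difference of each of the 29 measured members, RictoraP2KO minus control on the log2 scale (x axis), as points with 95% intervals from limma, grouped by role (y axis). The intervals of all members but Ifih1 and Ifit2 cross 0, and none passed the adjusted threshold.

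The transcription factors of the pathway had values that overlapped between the groups. Stat2, a subunit of ISGF3, had 5.54, 5.76, 5.67 and 5.06 in RictoraP2KO replicates 1 to 4, against 5.54, 5.46, 5.21 and 5.56 in control replicates 1 to 4. Irf9, which gives ISGF3 its DNA specificity, had 5.69, 5.74, 5.83 and 5.33 in RictoraP2KO arrays, against 5.50, 5.68, 5.40 and 5.56 in control arrays. In both genes RictoraP2KO replicate 4 was the lowest of the 8 arrays and control replicate 3 was the next lowest, so the groups overlapped. The differences were 0.07 (SE 0.151) for Stat2 and 0.11 (SE 0.113) for Irf9.

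Irf7, the factor that amplifies type I interferon production, had 4.49, 4.76, 4.89 and 4.66 in RictoraP2KO arrays, against 4.98, 4.41, 4.41 and 4.72 in control arrays, a difference of 0.07 (SE 0.14). Its highest value came from control replicate 1 and its lowest from control replicate 3, so all RictoraP2KO values lay inside the control range. Irf1, which carries the GAS core shown above and responds to type II interferon, had 5.79, 5.71, 5.94 and 5.80 in RictoraP2KO arrays, against 5.71, 5.84, 5.64 and 6.11 in control arrays, a difference of -0.02 (SE 0.105). All RictoraP2KO values of Irf1 lay inside the range of the control values. Of these 4 factors 0 passed the test.

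Among the cytosolic sensors of viral RNA, Ifih1 (MDA5, which binds long double-stranded RNA) had the smallest p of all members. It had 6.50, 6.329, 6.37 and 6.34 in RictoraP2KO arrays, against 5.98, 6.15, 6.06 and 6.326 in control arrays. The groups did not overlap, but the gap between RictoraP2KO replicate 2 and control replicate 4 was only in the third decimal. The difference was 0.25 (SE 0.084; interval 0.06 to 0.45), a 1.19-fold higher signal, with a limma unadjusted p = 0.0147 and an adjusted p = 0.651. It stayed between 0.20 and 0.32 with 1 array left out at a time and was 0.25 without the 3 arrays. Ifih1 and Mx1 were the members whose groups did not overlap, 2 of 29, against 3.57% of all genes.

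The other 2 sensors lay the other way. Ddx58 (RIG-I, which binds short RNA with a 5′ triphosphate) had 7.001, 6.56, 6.63 and 6.48 in RictoraP2KO arrays, against 6.66, 6.78, 6.49 and 6.83 in control arrays, a difference of -0.02 (SE 0.124). RictoraP2KO replicate 1 was its highest array and RictoraP2KO replicate 4 its lowest. Dhx58 (LGP2, a regulator of both sensors that lacks their signalling domain) averaged 4.46 ± 0.23 in RictoraP2KO and 4.54 ± 0.14 in control arrays (SD, n = 4 each), a difference of -0.08 (SE 0.12).

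The 3 IFIT genes, whose proteins bind viral RNA and hold back its translation, all had differences above 0. Ifit2 had 4.13, 4.34, 4.12 and 4.13 in RictoraP2KO arrays, against 3.77, 4.15, 3.61 and 4.08 in control arrays. Control replicates 1 and 3 lay well below the rest, while control replicate 2 lay above 3 of the RictoraP2KO arrays. The difference was 0.28 (SE 0.122), with a limma unadjusted p = 0.0496 and an adjusted p = 0.687. Ifit1 averaged 5.39 ± 0.47 in RictoraP2KO and 5.16 ± 0.29 in control arrays (SD, n = 4 each), a difference of 0.23 (SE 0.230). Ifit3 averaged 6.18 ± 0.51 in RictoraP2KO and 6.03 ± 0.30 in control arrays (SD, n = 4 each), a difference of 0.15 (SE 0.248). Both were highest in RictoraP2KO replicate 3, and without that array the differences were 0.04 for Ifit1 and -0.05 for Ifit3.

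**Figure D2:**
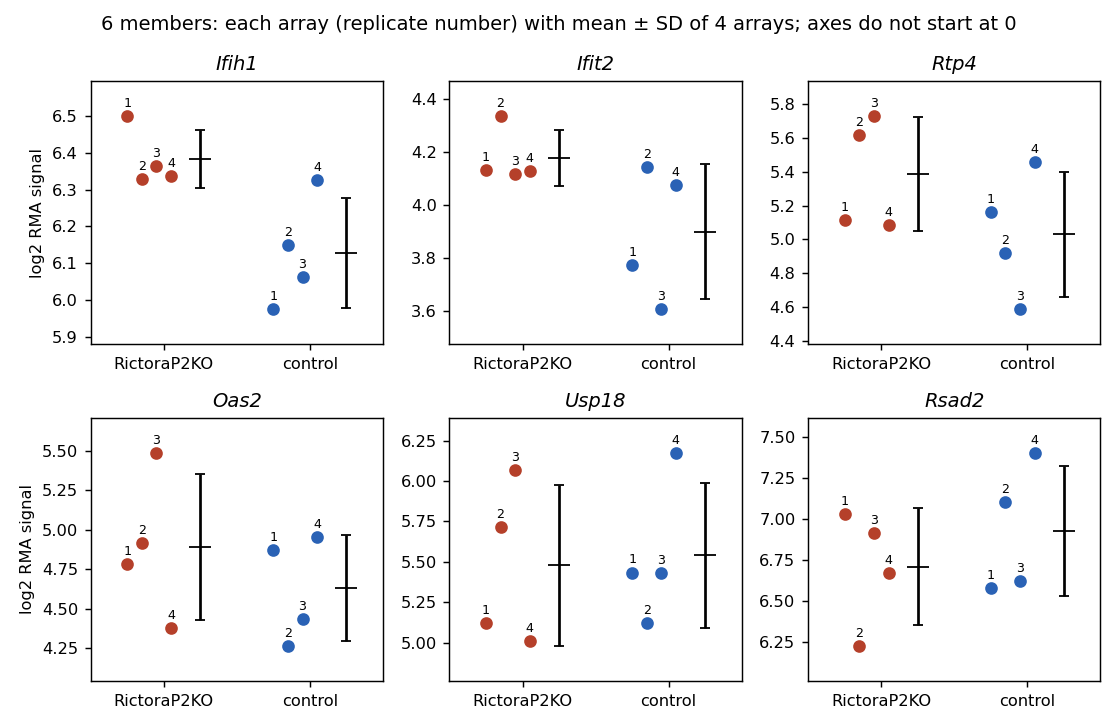
Log2 RMA signal (y axes, which do not start at 0) of 6 members in each array, RictoraP2KO left in red and control right in blue, with replicate numbers and, in black, the mean ± SD of 4 arrays. Of the 6, only Ifih1 has groups that do not overlap, and Rtp4, Oas2, Usp18 and Rsad2 spread by over 1 log2 unit across the 8 arrays with overlapping groups.

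Enzymes of the oligoadenylate synthetase family make the messenger that turns on RNase L, which cleaves RNA. The OASL proteins of this family carry ubiquitin-like domains. Oas2 had 4.78, 4.91, 5.49 and 4.38 in RictoraP2KO arrays, against 4.87, 4.26, 4.43 and 4.95 in control arrays, a difference of 0.26 (SE 0.239). The highest value, in RictoraP2KO replicate 3, and the next to lowest, in RictoraP2KO replicate 4, belonged to the same group. Oas1a had 3.48, 3.38, 3.42 and 2.42 in RictoraP2KO arrays, against 3.40, 3.66, 2.95 and 3.52 in control arrays. RictoraP2KO replicate 4 lay far below the other arrays. The difference was -0.21 (SE 0.249), and without that array it was 0.05. Oasl1 differed by 0.20 (SE 0.155), Oasl2 by 0.21 (SE 0.208) and Oas3 by 0.09 (SE 0.065). Without RictoraP2KO replicate 3 the difference was 0.06 for Oas2 and 0.03 for Oasl2, and without RictoraP2KO replicate 2 it was 0.07 for Oasl1. The signals of Oas1a and Oas3 were dim, with means under the median of 3.77 over all probe sets, as were those of Isg15, Mx1 and Mx2. The remaining 24 members were above that median.

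Isg15 encodes the ubiquitin-like protein that is linked to targets during the response, and Usp18 the protease that removes it and also blocks IFNAR signalling. Usp18 had 5.12, 5.71, 6.07 and 5.01 in RictoraP2KO arrays, against 5.43, 5.12, 5.43 and 6.18 in control arrays, a difference of -0.06 (SE 0.280). Its highest value was in control replicate 4 and its lowest in RictoraP2KO replicate 4, so the groups overlapped. Isg15 averaged 2.46 ± 0.11 in RictoraP2KO and 2.38 ± 0.15 in control arrays (SD, n = 4 each), a difference of 0.08 (SE 0.089) at a dim signal.

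Among other antiviral effectors, Rsad2 (viperin, an enzyme that makes a chain-terminating nucleotide) had 7.03, 6.23, 6.92 and 6.67 in RictoraP2KO arrays, against 6.58, 7.11, 6.63 and 7.41 in control arrays. Its difference of -0.22 (SE 0.225) was the most negative of the set, and RictoraP2KO replicate 2 was its lowest array. Without that array the difference was -0.06, as it was without control replicate 4, its highest. Cmpk2, the nucleotide kinase gene next to Rsad2, averaged 5.00 ± 0.17 in RictoraP2KO and 4.96 ± 0.16 in control arrays (SD, n = 4 each), a difference of 0.04 (SE 0.107). Mx1, a dynamin-like GTPase active against influenza viruses and disrupted in many laboratory strains, had 2.73, 2.91, 2.79 and 2.72 in RictoraP2KO arrays, against 2.69, 2.71, 2.70 and 2.69 in control arrays. These dim values did not overlap, but the difference of 0.09 (SE 0.059) had a limma unadjusted p = 0.169. Its relative Mx2 differed by 0.04 (SE 0.141), and Bst2 (tetherin, which holds budding virus at the cell surface) by 0.05 (SE 0.128).

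The GTPases of the GBP and IRG families act on membranes of vacuoles that hold microbes and answer chiefly to type II interferon. Irgm1, a regulator of the IRG family, had 5.87, 6.02, 6.14 and 5.90 in RictoraP2KO arrays, against 5.73, 5.97, 5.65 and 5.97 in control arrays. Control replicates 1 and 3 lay below all other arrays, and the difference was 0.15 (SE 0.097). Gbp2 averaged 6.58 ± 0.27 in RictoraP2KO and 6.59 ± 0.37 in control arrays, and Gbp3 averaged 5.36 ± 0.28 in RictoraP2KO and 5.33 ± 0.38 in control arrays (SD, n = 4 each). Their differences were -0.01 (SE 0.194) for Gbp2 and 0.03 (SE 0.199) for Gbp3.

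Of the other response genes, Rtp4, which encodes a receptor-transporting protein, had 5.12, 5.62, 5.73 and 5.09 in RictoraP2KO arrays, against 5.16, 4.92, 4.59 and 5.46 in control arrays. RictoraP2KO replicates 2 and 3 were highest and control replicate 3 lowest, with overlap between. Its difference, 0.36 (SE 0.211; interval -0.12 to 0.83), was the largest of the set in size, and without the 3 arrays it was 0.00. Parp14, an ADP-ribosyltransferase, had 5.73, 5.62, 5.67 and 5.20 in RictoraP2KO arrays, against 5.43, 5.39, 5.22 and 5.45 in control arrays, a difference of 0.18 (SE 0.117). Its RictoraP2KO replicates 1 to 3 lay above every control array and RictoraP2KO replicate 4 below every one. Ifi27l2a, a small protein gene strongly induced by interferon, had 7.38, 7.12, 6.62 and 6.77 in RictoraP2KO arrays, against 6.35, 7.01, 6.47 and 7.36 in control arrays, a difference of 0.17 (SE 0.245). Xaf1, a partner of the apoptosis inhibitor XIAP, differed by -0.02 (SE 0.137).

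The range of interferon response genes within each group exceeded the difference between the groups. The mean over the 29 members, each taken relative to its own mean over the 8 arrays, stood at 0.02, 0.09, 0.24 and -0.18 in RictoraP2KO replicates 1 to 4, against -0.06, -0.05, -0.25 and 0.19 in control replicates 1 to 4. It spanned 0.42 among RictoraP2KO arrays and 0.43 among control arrays, against 0.09 between the group means. From the lowest to the highest array it spanned 0.49, or 1.40-fold. RictoraP2KO replicate 3 and control replicate 4 were each the highest array for 8 members. Control replicate 3 was the lowest for 12 members and RictoraP2KO replicate 4 for 8. RictoraP2KO replicate 3 lay above the gene's own mean in 27 of 29 members, and control replicate 3 in 1 of 29.

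**Figure D3:**
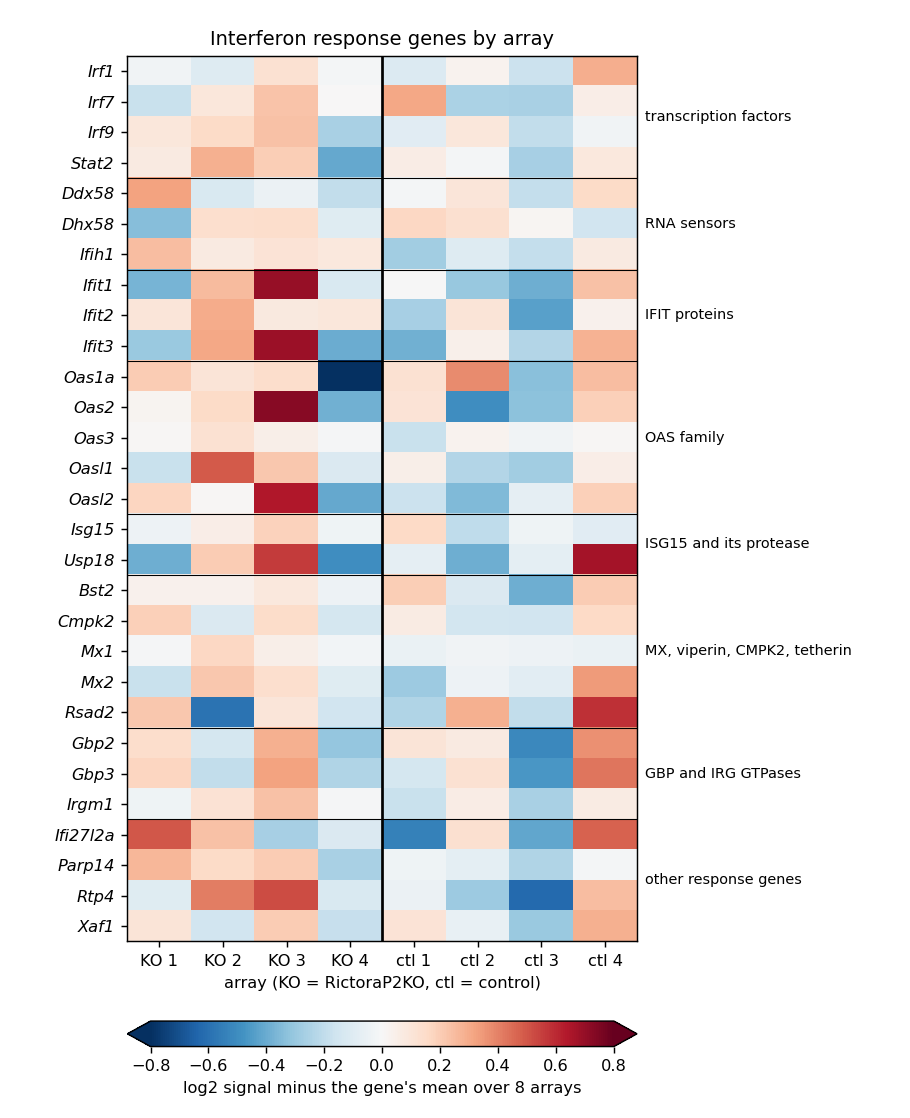
Log2 signal of each of the 29 measured members (rows, by role) in each array (columns, RictoraP2KO left of control), relative to the gene's mean over the 8 arrays; red is higher and blue lower. RictoraP2KO replicate 3 and control replicate 4 are red in most rows, RictoraP2KO replicate 4 and control replicate 3 blue.

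Pairs of members moved together from array to array after the mean of each group was taken off. Pearson's r over the 8 arrays, so computed, had a median of 0.45 over the 406 pairs of members, and 44.1% of pairs lay above 0.5. Among the 24 members brighter than the median probe set, the median was 0.51, against 0.00 over all pairs of the 10408 genes as bright, of which 16.1% lay above 0.5. All pairs rest on the same 8 arrays and share their tissue makeup, so these values are a description. The median was 0.55 without the 3 arrays that carried other tissue.

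The closest pair was Xaf1 and Gbp2 (r = 0.96), followed by Oas1a and Parp14 (0.95), Irf9 and Oas1a (0.95) and Gbp2 and Gbp3 (0.94). Oas1a had its lowest value in RictoraP2KO replicate 4, and its Spearman correlation with Stat2 was 0.41 beside an r of 0.91. Rtp4 lay nearest to the mean of the other members (r = 0.90) and was closest to Ifit1 (0.91). Gbp2, Xaf1, Gbp3 and Stat2 followed with 0.87, 0.83, 0.83 and 0.82. The ISGF3 subunits Stat2 and Irf9 had an r of 0.88 with each other, beside a Spearman correlation of 0.64. Both had their lowest value in RictoraP2KO replicate 4. Ifit1, Usp18 and Rtp4 formed close pairs too (Ifit1 and Usp18, 0.89).

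A few members lay farther from the mean of the others. Ifih1 had r of 0.88 with Ifi27l2a, 0.86 with Rsad2 and 0.72 with Ddx58, while Rsad2 and Ifi27l2a had 0.60. These genes were not a block apart, since some were close to other members too. Rsad2 had 0.855 with Gbp3, Ifih1 had 0.755 with Irf1 and Ddx58 had 0.72 with Gbp3, while Ifi27l2a had 0.56 with Gbp3. With the mean of the other members, r was 0.47, 0.33, 0.43 and 0.44 for Ifih1, Ifi27l2a, Rsad2 and Ddx58. Dhx58 ran against them, with r of -0.72 to Ifih1, -0.61 to Ifi27l2a, -0.60 to Ddx58 and -0.59 to Rsad2, and had the lowest r with the mean of the others, 0.07. Isg15, dim on this array, had 0.22 with that mean and its closest partner was Irf7 (0.82). The 3 RNA sensors had no common order of arrays. Stat2, Irf9, the IFIT genes Ifit1 and Ifit3 and the GBP genes each had an r of at least 0.75 with the mean of the others. The remaining transcription factors and IFIT gene lay lower, at 0.73 for Irf1, 0.44 for Irf7 and 0.49 for Ifit2.

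**Figure D4:**
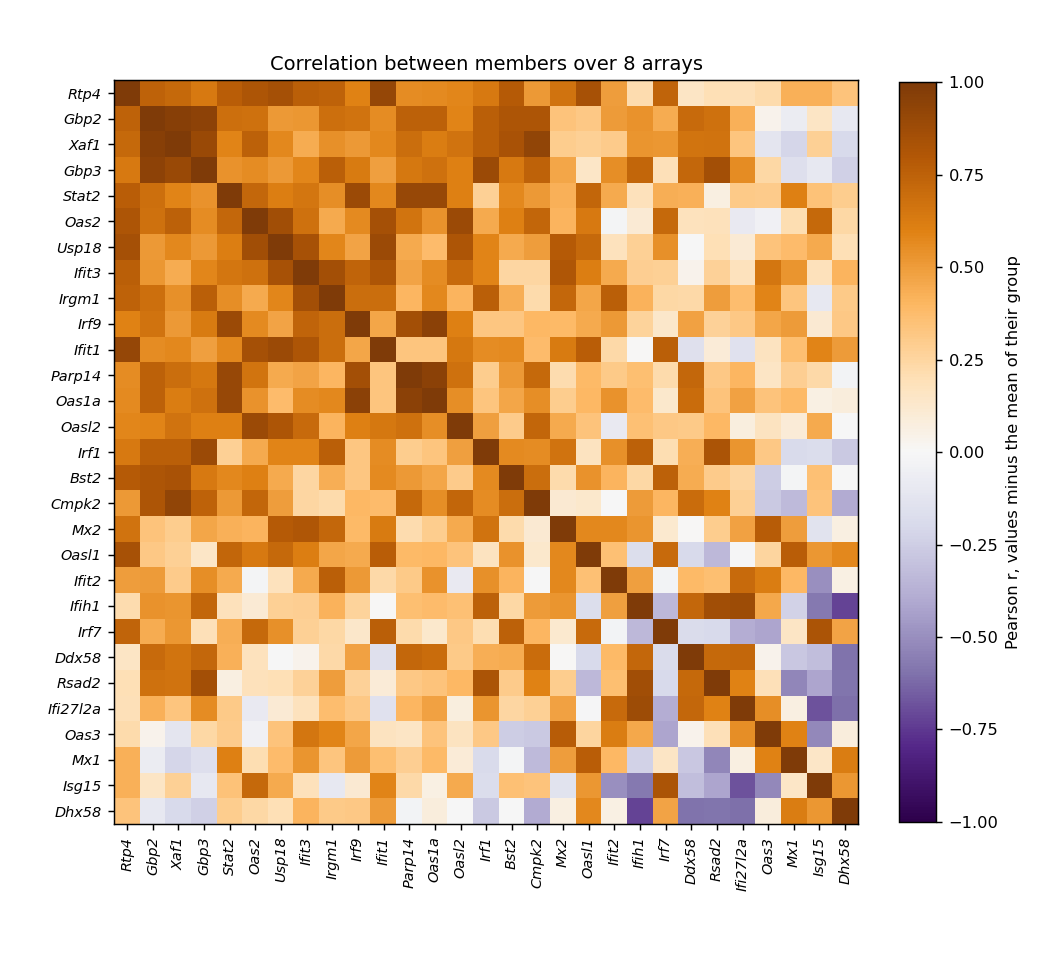
Pearson correlation between the 29 members over 8 arrays, after the mean of each group was subtracted, with members ordered on both axes by their correlation with the mean of the others. Most cells are brown (positive, 87.2% of pairs), and purple cells gather where Dhx58 and Isg15 meet Ifih1, Rsad2, Ddx58 and Ifi27l2a.

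Other interferon response genes, 33 measured genes of a separate list with no gene in common with the members, had array means of 0.03, 0.01, 0.17 and -0.08 in RictoraP2KO replicates 1 to 4, against -0.02, -0.03, -0.20 and 0.11 in control replicates 1 to 4. The highest and lowest arrays of each group were those of the 29 members. By limma 0 of the 33 passed, and 2 had an unadjusted p under 0.05, against 6.48% of all genes. They were Slfn8 with a difference of 0.33 (SE 0.125) and Znfx1 with -0.32 (SE 0.075, limma adjusted p = 0.605). Ifitm3, which keeps virus out of endosomes, differed by 0.21 and Ly6e by 0.15. Of 14 measured interferon genes 12 were dim, and 0 passed by limma (2 at an unadjusted p under 0.05, Ifna14 with 0.25 and Ifnab with 0.27).

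Receptors and kinases upstream of the members gave 0 genes past the threshold by limma of 9 measured, and 1 at an unadjusted p under 0.05, Ifnlr1 (0.18, dim). Differences were -0.07 (SE 0.117) for Ifnar1, -0.16 (SE 0.079) for Ifnar2, 0.32 (SE 0.211) for Ifngr1, -0.14 (SE 0.088) for Ifngr2, 0.02 (SE 0.074) for Jak1 and 0.04 (SE 0.169) for Tyk2. Of 17 measured sensors and adaptors 0 passed and 6 had an unadjusted p under 0.05, against 6.48% of all genes. Of the 6, 5 were higher in RictoraP2KO and 1 was lower. Zbp1, a sensor of Z-form nucleic acid, differed by 0.31 (SE 0.10), Aim2 by 0.29, Tlr8 by 0.29 and Mavs, the adaptor on which Ddx58 and Ifih1 signal, by -0.27 (SE 0.108). Of 12 negative regulators 0 passed by limma and 0 had an unadjusted p under 0.05.

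Markers of immune cells had differences mostly above 0, and 0 of them passed by limma. Over all genes, 46.8% had a difference above 0 and 6.48% had a limma unadjusted p under 0.05. Macrophage markers, 11 of 11 above 0 and 3 with an unadjusted p under 0.05, had array means of 0.36, 0.26, -0.24 and 0.20 in RictoraP2KO replicates 1 to 4, against 0.04, -0.24, -0.29 and -0.09 in control replicates 1 to 4. RictoraP2KO replicate 3, the highest array for the members, was the lowest of its group there, while control replicate 3 was lowest for both. Monocyte and neutrophil markers had 7 of 8 differences above 0, with a median difference of 0.36. Only 3 of the 8 lay above the median over all probe sets. Of the 4 with an unadjusted p under 0.05, Plac8, S100a8 and S100a9 were dim. Retnlg lay above that median, with a difference of 0.605 (SE 0.185) and overlapping groups. Array means of the 8 markers were 0.145, 0.43, -0.13 and 0.22 in RictoraP2KO arrays, against -0.255, -0.09, -0.11 and -0.21 in control arrays. T and NK cell markers had 8 of 9 differences above 0, and only 2 of the 9 lay above the median over all probe sets. At a limma unadjusted p under 0.05, Cd4 and Lat were higher and Klrb1c was lower (-0.185), all of them dim. The means of this list were 0.44 in RictoraP2KO replicate 2 and at most 0.19 elsewhere. For B cell markers (7 of 7 above 0, 0 with an unadjusted p under 0.05) the means were 0.92 in that array and at most 0.11 elsewhere. Of the 4 measured markers of plasmacytoid dendritic cells, the chief makers of type I interferon, 3 were dim. Ccr9, one of the dim ones, averaged 2.30 ± 0.10 in RictoraP2KO and 2.04 ± 0.09 in control arrays without overlap (SD, n = 4 each), with a limma adjusted p = 0.649, and Siglech averaged 3.69 ± 0.43 in RictoraP2KO and 3.49 ± 0.15 in control arrays (SD, n = 4 each). The list had means of 0.31, 0.05, -0.08 and 0.01 in RictoraP2KO arrays, against -0.09, -0.07, -0.15 and 0.02 in control arrays, whose order is that of the members in the control group but not in the RictoraP2KO group. The part of these cells in the values of the members was not tested.

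**Figure D5:**
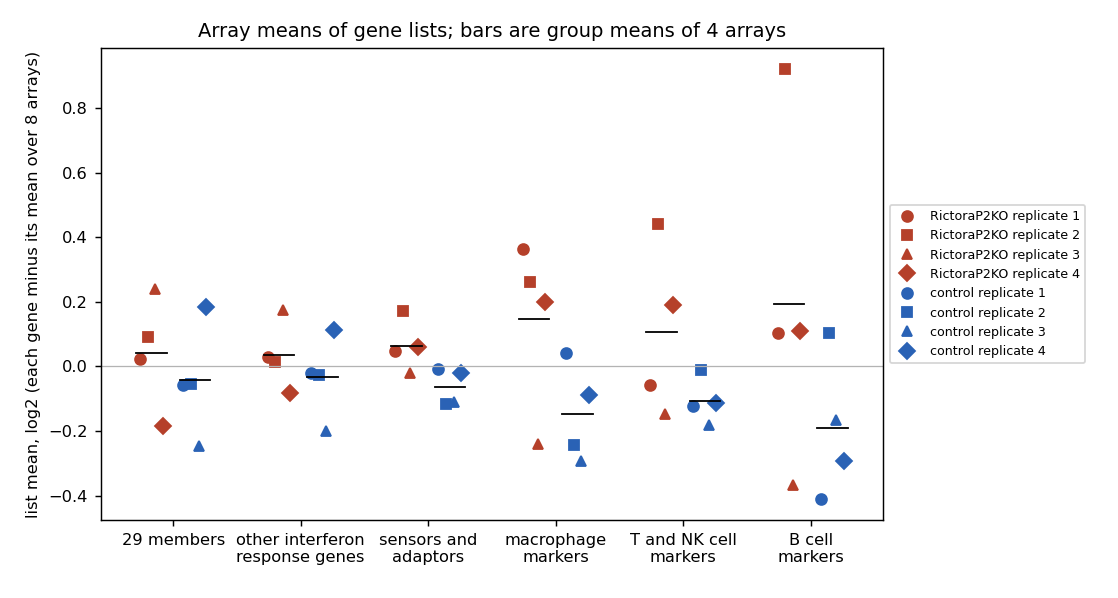
Mean of each gene list per array on the log2 scale, each gene taken relative to its mean over 8 arrays (y axis), for RictoraP2KO (red, left) and control (blue, right), with 1 symbol per replicate and bars for the group means. RictoraP2KO replicate 3 (red triangle) stands highest for the members and for the other interferon response genes but lowest of its group for the macrophage markers, -0.24.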

How the data were processed

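Per the submitters' processing notes, the authors made the deposited log2 values with RMA in Affymetrix Power Tools 1.10.2; library files are not given in the sources used here. Total RNA (5 µg) of each of 8 samples was labelled, per the labels' protocols. The table holds 28371 probe sets, and the sorted values of the arrays lay within 0.03 of each other, so a global shift in RNA output would not be seen. Scanner intensities were not used here.

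The platform annotation gave the gene names: 21158 probe sets had 1 symbol, 1881 several and 5332 none. Each gene took its probe set with the highest mean. limma 3.58.1 (lmFit and eBayes, run under R 4.3.3) gave the tests over all probe sets, with no filter and no covariate, and checked on simulated data. The members and lists were chosen with earlier results of these data known, so no test was made over a list. Values are printed by array for the 6 members with the smallest p, the 5 with the largest range, the 3 with the highest signal and the 4 transcription factors; of each other list up to 4 genes by p, plus receptors and kinases. Nothing says that the samples are separate animals, so p-values measure the spread between samples. Alternatives were a filter on dim probe sets, renormalization, centring, limma-trend, robust eBayes, array weights, a replicate block, arrays left out and other probe set choices.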

Additional observations from a re-analysis of the deposited data

Results flagged for a closer look

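In 2 of 60 groups of 4 arrays, 1 array lay far from the other 3 by Dixon's criterion, which chance alone meets in about 1 in 20 groups. Oas1a stood at 2.42 in RictoraP2KO replicate 4, where the other RictoraP2KO arrays lay between 3.38 and 3.49. Ifit2 stood at 4.34 in RictoraP2KO replicate 2, where the others lay between 4.12 and 4.13.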

How the results depend on the processing

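In every alternative run, 0 of the 29 members passed by limma (smallest adjusted p from 0.547 without RictoraP2KO replicate 3 to 0.969 without the 3 arrays that carried other tissue), and in the fit of all 8 arrays 2 had an unadjusted p under 0.05. With a replicate block the median difference was 0.08 with 0 members called (smallest limma adjusted p = 0.821). Same-numbered arrays had correlations of -0.154, -0.03, 0.03 and 0.09 with group means taken off. No pairing by number was visible in these values, which cannot exclude one. The median difference ranged from 0.03 to 0.13 with 1 array left out and was -0.05 without the 3 arrays. The median correlation between members ranged from 0.372 to 0.532 with 1 array left out and was 0.551 without the 3 arrays. The sign of 17 members turned in some setting. Leaving out 1 array gave ranges of -0.054 to 0.307 for Ifit3, -0.078 to 0.077 for Irf1, -0.004 to 0.19 for Irf7, -0.351 to 0.047 for Oas1a, -0.26 to 0.15 for Usp18, -0.052 to 0.158 for Mx2, -0.014 to 0.22 for Stat2, -0.071 to 0.128 for Bst2, -0.143 to 0.021 for Dhx58 and -0.135 to 0.039 for Ddx58. The ranges were -0.119 to 0.074 for Xaf1, -0.19 to 0.105 for Gbp2, -0.12 to 0.175 for Gbp3 and -0.019 to 0.097 for Cmpk2. Without the 3 arrays, the differences that turned were -0.049 for Ifit1, -0.167 for Irf7, -0.029 for Oas2, -0.079 for Oasl1, -0.072 for Mx2, -0.121 for Stat2, -0.177 for Bst2, -0.058 for Gbp3 and -0.050 for Cmpk2. The causes of these changes were not tested. Dim signals of Isg15, Oas1a, Oas3, Mx1 and Mx2 limit what their differences show.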

Other observations

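Among 10384 other genes brighter than the median probe set, 12 had the highest Pearson correlations with the mean of the members over the 8 arrays, group means removed. The list of other interferon response genes held 1 of them, Herc6 (r = 0.97), an ISG15 ligase in the mouse. The remaining 11 are in none of the interferon lists used here. They were Tnpo3 (0.99), Pcdh12 (0.94), Ep400 (0.94), Hyou1 (0.93), Bcor (0.93), Csprs (0.93), Mfsd13a (0.92), Pcyt1a (0.91), 2310067E19Rik (0.91), Pus7 (0.90) and 1700094D03Rik (0.90). With group means kept, the correlations of the 12 ran from 0.50 for Ep400 to 0.94 for Herc6. The 12 were picked as the highest of 10384 genes, which by itself favours high values. All values rest on the same 8 arrays, so the order of genes is a description. None of the 12 differed between the groups by limma, with adjusted p-values from 0.767 to 0.993 and 0 genes with an unadjusted p under 0.05.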
